A study of Mus musculus with 6 samples.

Results

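The 10 genes described here encode the insulin-like growth factors, their receptors and the proteins that bind them: the ligands Igf1 and Igf2, the receptors Igf1r, Igf2r and Insr, and the binding proteins Igfbp2, Igfbp3, Igfbp4, Igfbp5 and Igfbp7. They were taken by name from the 26049 genes of a table of single-nucleus RNA counts from mouse hippocampus, and all 10 were found in it. Every nucleus came from a male PS19 mouse, which carries human tau with the P301S mutation under the mouse prion promoter, so the sham mice are tau transgenic too and no mouse without the transgene was included. Mild traumatic brain injury (TBI) was given to the right side of the brain by controlled cortical impact, and mice received an adeno-associated virus (AAV) that carried either VEGFC, a growth factor for lymphatic vessels, or GFP as control. The study set injury against sham surgery and VEGFC against GFP.

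There was 1 library for each of 6 combinations: TBI with VEGFC, left hippocampus; TBI with VEGFC, right; TBI with GFP, left; TBI with GFP, right; sham with VEGFC, right; and sham with GFP, right. The labels give neither the age of the mice, nor how many mice make up a library, nor if the sides of a TBI pair are from shared animals. The 6 libraries held 3676 to 6002 nuclei, 15358208 to 18379148 unique molecular identifiers (UMIs, each a counted RNA molecule), and the median nucleus had 2689 to 3703.5 of them. The authors assigned the 28650 nuclei to 9 classes and 32 clusters. Defining markers were highest where the labels place them, with 8 of 8 fibroblast, 8 of 8 microglial and 8 of 8 choroid plexus markers highest in the class of that name. The fibroblast class (412 nuclei) also had the highest level of 4 of 8 endothelial and 4 of 7 mural cell markers, so its values describe a class in which other vascular cells cannot be set apart. The microglia class (406 nuclei) had summed border macrophage markers of 15.7 to 644 CPM over the libraries (CPM is a gene's UMIs per 1000000 UMIs of the class). A total of 91 cell barcodes occurred in more than 1 library, in 182 nuclei. In the 3 contexts (TBI left, TBI right, sham right) VEGFC and GFP each had a single library, so the spread given below is between libraries.

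IGF-I and IGF-II are small secreted proteins related to insulin that promote growth and survival through the IGF-I receptor, a tyrosine kinase that signals through the PI3K-Akt and Ras-MAPK pathways. The IGF-II receptor has no kinase: it binds IGF-II, removes it from the surroundings and also carries mannose-6-phosphate-tagged enzymes to lysosomes. IGF binding proteins hold IGFs in the extracellular space and thereby restrain or prolong their action, and proteases such as pappalysin release the IGFs again. In the brain, IGF-II is a known product of the meninges and choroid plexus, and IGF-I of some neurons and of microglia.

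The promoter sequences of 4 members are shown because their levels differed strongly between cell classes or clusters. They are the 250 bases before a RefSeq start site in GRCm38.p6 (the assembly known as mm10), read 5′ to 3′ on the gene's strand, with capitals marking a CCAAT box (CCAAT or its complement ATTGG) or a GC box (GGGCGG or its complement CCGCCC). For Igf2 the first window lies before the most distant start, and the second before the start nearest to the coding exons.
Igf1, chr10:87860861-87861110, plus strand: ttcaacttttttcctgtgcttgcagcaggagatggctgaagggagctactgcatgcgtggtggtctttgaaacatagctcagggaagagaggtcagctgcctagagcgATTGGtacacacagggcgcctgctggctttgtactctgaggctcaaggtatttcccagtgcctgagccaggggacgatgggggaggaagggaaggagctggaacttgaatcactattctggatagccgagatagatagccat
Igf2, chr7:142666817-142667066, minus strand: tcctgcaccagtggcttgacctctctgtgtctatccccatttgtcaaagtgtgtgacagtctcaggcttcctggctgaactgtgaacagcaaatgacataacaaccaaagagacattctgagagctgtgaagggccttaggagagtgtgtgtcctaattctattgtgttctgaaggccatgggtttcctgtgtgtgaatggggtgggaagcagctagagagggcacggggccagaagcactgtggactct
Igf2, chr7:142657497-142657746, minus strand: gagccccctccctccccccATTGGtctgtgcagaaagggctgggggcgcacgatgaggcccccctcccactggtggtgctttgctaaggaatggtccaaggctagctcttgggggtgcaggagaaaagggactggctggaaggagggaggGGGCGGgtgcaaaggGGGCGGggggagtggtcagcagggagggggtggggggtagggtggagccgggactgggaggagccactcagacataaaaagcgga
Igfbp2, chr1:72824230-72824479, plus strand: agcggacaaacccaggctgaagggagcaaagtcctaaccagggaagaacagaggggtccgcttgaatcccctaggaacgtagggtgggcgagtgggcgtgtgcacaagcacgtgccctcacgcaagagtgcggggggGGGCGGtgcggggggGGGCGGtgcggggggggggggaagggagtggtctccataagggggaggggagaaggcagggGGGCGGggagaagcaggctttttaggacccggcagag
Igfbp5, chr1:72874866-72875115, minus strand: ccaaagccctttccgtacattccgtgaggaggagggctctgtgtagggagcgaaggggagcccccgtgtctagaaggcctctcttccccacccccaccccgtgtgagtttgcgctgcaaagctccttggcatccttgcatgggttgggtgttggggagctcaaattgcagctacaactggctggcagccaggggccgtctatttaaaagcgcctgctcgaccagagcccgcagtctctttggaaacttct
The Igfbp2 window shown held 3 GC boxes and had 67.2% G and C, while the Igf1 window held 1 CCAAT box and had 52.8%. Another Igfbp2 window, at chr1:72825137-72825386 and not shown, held 0 GC boxes and had 56.4%. Igf2 too has windows that are not shown. The second Igf2 window held 2 GC boxes and 1 CCAAT box, and the Igfbp5 window and the first Igf2 window held no match to either motif or to TATAAA. Among 32851 mouse promoter windows of this length, 32.7% held a GC box, 33.8% a CCAAT box and 12.4% TATAAA on either strand. A match describes the letters of the window only.

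In the mouse genome (mm10, GENCODE M21 annotation) Igfbp2 (chr1:72824503-72852474, plus strand) and Igfbp5 (chr1:72857932-72874884, minus strand) are neighbours that point towards each other. Igf1 lies at chr10:87858265-87937042 on the plus strand and Igf2 at chr7:142650766-142666816 on the minus strand. Some members overlap a gene on the opposite strand: Igf1 overlaps Igf1os by 5117 bases, Igf2 overlaps Igf2os by 7124 bases, and Igf2r overlaps Airn by 28354 bases. No source used here gives the strand setting of the counting, so reads of these pairs cannot be told apart. This matters most for Igf2r, which had 3639 UMIs against 10029 for Airn.

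Igf1 RNA was found mainly in some inhibitory neurons and in the non-neuronal fibroblast and microglia classes. Of its 1656 UMIs, 1485 (89.7%) were in inhibitory neurons. Their level was 79.2 ± 22.1 CPM (SD, n = 6 libraries), that of the fibroblast class 91.2 ± 71.8 CPM on 40 UMIs, and that of microglia 31.9 ± 15.6 CPM on 21 UMIs. The ranges over libraries of fibroblasts (25.4 to 219 CPM) and inhibitory neurons (54.4 to 116 CPM) overlapped, so their order is not resolved. Inhibitory neurons stood above microglia (17.2 to 53.0 CPM) in ranges that did not overlap but lay close. The highest microglial value, on 11 UMIs, had a Poisson 95% interval of 26.5 to 94.8 CPM, so the gap between the ranges is within counting error. Microglia had 11 and 3 Igf1 UMIs in the left and right TBI VEGFC libraries, 1 and 3 in the left and right TBI GFP libraries, 1 in sham VEGFC and 2 in sham GFP, too few to be tested. Excitatory neurons, from a class of like sequencing depth (median 4222.5 UMIs per nucleus against 4134.5 in inhibitory neurons), had 0.819 ± 0.291 CPM. The mixed neuron class had 8.38 ± 8.99 CPM on 24 UMIs, and its highest values were those of the right (24.9 CPM, 5 UMIs) and left (12 UMIs) TBI GFP libraries. An Igf1 UMI was present in 17.5% of inhibitory nuclei (exact 95% interval 16.4 to 18.7%) and in 0.338% of excitatory nuclei. With every nucleus thinned to 1000 UMIs these shares were 6.29% and 0.0961%. No UMI was found in 993 oligodendrocyte precursor cell (OPC) nuclei, where a count of 0 allows up to 1.53 CPM. Intervals and limits of this kind cover counting error only.

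**Figure D1:**
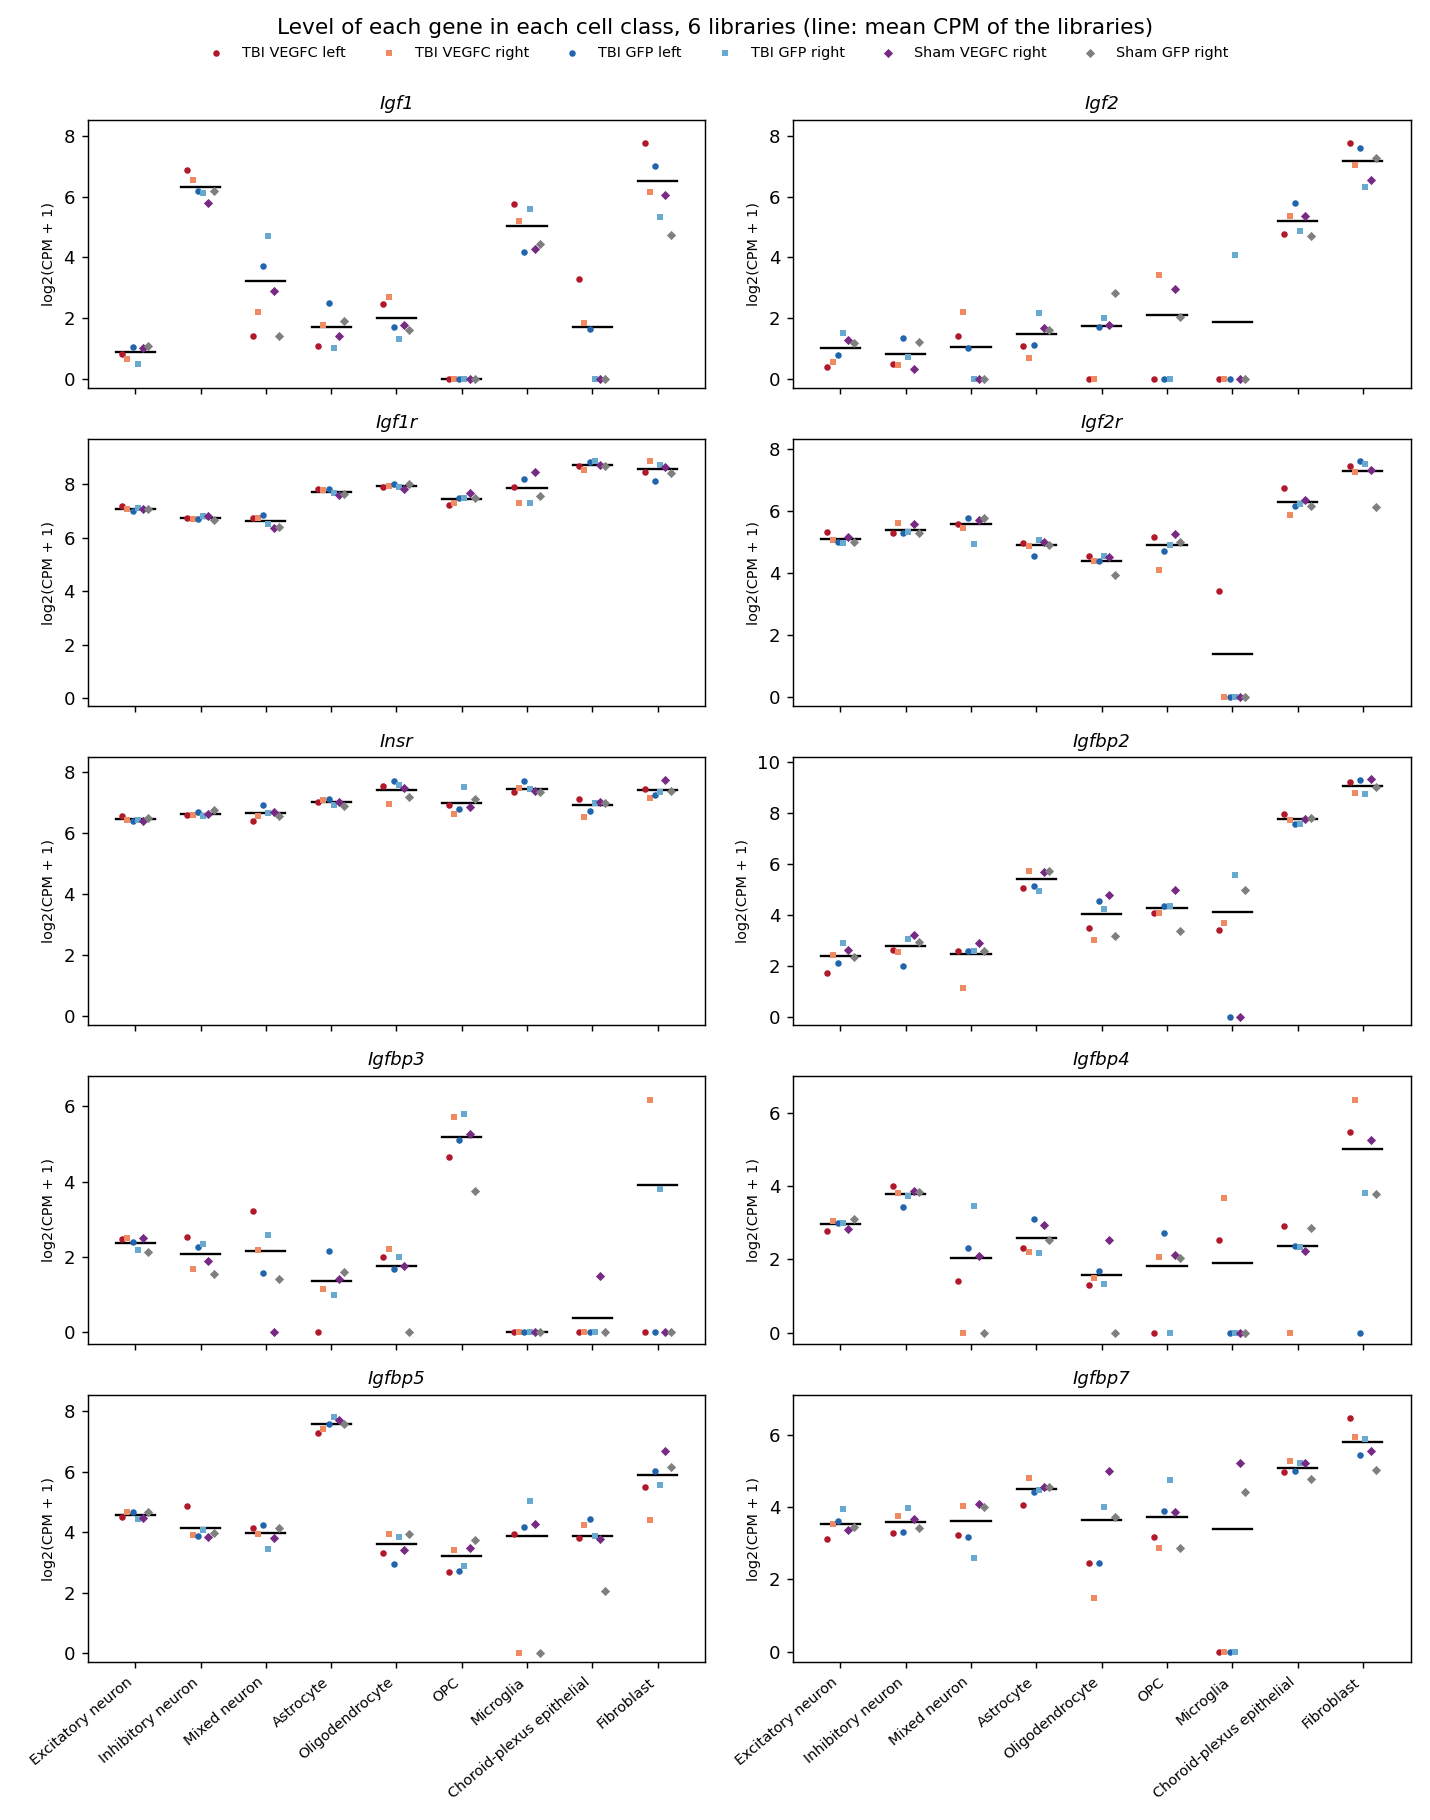
Level of each of the 10 genes by cell class, as log2(CPM + 1), with each library as a point and the mean CPM of the 6 libraries as a line. Igf1 is high in fibroblasts, inhibitory neurons and microglia, Igf2 in fibroblasts and choroid plexus, and Igfbp5 in astrocytes, while Igf1r and Insr are present in every class.

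Within inhibitory neurons, Igf1 followed the authors' clusters. Inhibitory neuron 3 averaged 259 ± 30.7 CPM, Inhibitory neuron 8 averaged 239 ± 82.9 CPM (4 libraries with at least 20 nuclei), Inhibitory neuron 6 averaged 54.6 ± 32.0 CPM and Inhibitory neuron 1 averaged 49.3 ± 7.94 CPM. These 4 clusters held 99.1% of the inhibitory Igf1 UMIs with 62.5% of the inhibitory UMIs of all genes, and Inhibitory neuron 3 alone held 64.2% with 18.9%. An Igf1 UMI was seen in 51.4% of the nuclei of Inhibitory neuron 3, 48.5% of Inhibitory neuron 8, 18.6% of Inhibitory neuron 6 and 15.4% of Inhibitory neuron 1, but in under 1% of those of clusters 2, 5 and 7 (0.844%, 0.240% and 0.680%). Library by library, Inhibitory neuron 3 had 253 and 258 CPM in the left and right TBI VEGFC libraries, 298 and 253 CPM in the left and right TBI GFP libraries, 210 CPM in sham VEGFC and 285 CPM in sham GFP. It lay above Inhibitory neuron 1 in 6 of 6 libraries by a ratio of means of 5.27, and the ranges were apart.

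These clusters differ in the markers of known interneuron types. Inhibitory neuron 3 had 454 CPM of Vip, the vasoactive intestinal peptide of disinhibitory interneurons, 1110 CPM of the cannabinoid receptor gene Cnr1 and 9595 CPM of Adarb2. Inhibitory neuron 8 had 671 CPM of Ndnf and 2594 CPM of Reln, and no type is named for it from these genes alone. A UMI of Lamp5, another interneuron marker, was present in 339 nuclei of clusters 1, 3, 6 and 8. Of these, 34 were in cluster 3 and 18 in cluster 1. Inhibitory neuron 8 has 134 nuclei in all, so part of the rest lay in Inhibitory neuron 6. Inhibitory neuron 1 had 332 CPM of somatostatin (Sst) and 41.2 CPM of parvalbumin (Pvalb). Across the nuclei of clusters 1, 3, 6 and 8, those with a Vip UMI had 243 CPM of Igf1 and those without had 107 CPM. The corresponding Igf1 levels were 268 and 107 CPM for the serotonin receptor gene Htr3a, 258 and 101 CPM for Ndnf, and 205 and 61.0 CPM for Cnr1. The opposite order held for Pvalb, at 18.7 CPM (20 UMIs) with the marker and 130 CPM without it. Inside Inhibitory neuron 1 alone, Igf1 was at 9.19 CPM with a Pvalb UMI and 56.8 CPM without, at 62.9 CPM with and 34.1 CPM without an Sst UMI, and at 87.4 CPM with and 27.8 CPM without a Reln UMI. Over clusters 1, 3, 6 and 8 together, Igf1 was higher with than without a UMI of Vip, Cnr1, Ndnf, Htr3a or Reln (149 and 98.6 CPM). So it was for Cck (168 and 105 CPM) and Calb2 (136 and 120 CPM). It was lower with than without a UMI of Pvalb, Lamp5 (92.4 and 125 CPM), Npy (102 and 124 CPM) or Nos1 (93.1 and 125 CPM). For several markers, Sst among them, the order depended on the nuclei taken. Over clusters 1, 3, 6 and 8 together Igf1 was at 92.0 CPM with an Sst UMI and 134 CPM without. Inside Inhibitory neuron 1 it was at 74.6 CPM with and 42.7 CPM without an Npy UMI. For Vip the values there were 36.4 CPM (6 UMIs) and 49.6 CPM. These levels are descriptions without a test, since clusters were built from the same counts.

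**Figure D2:**
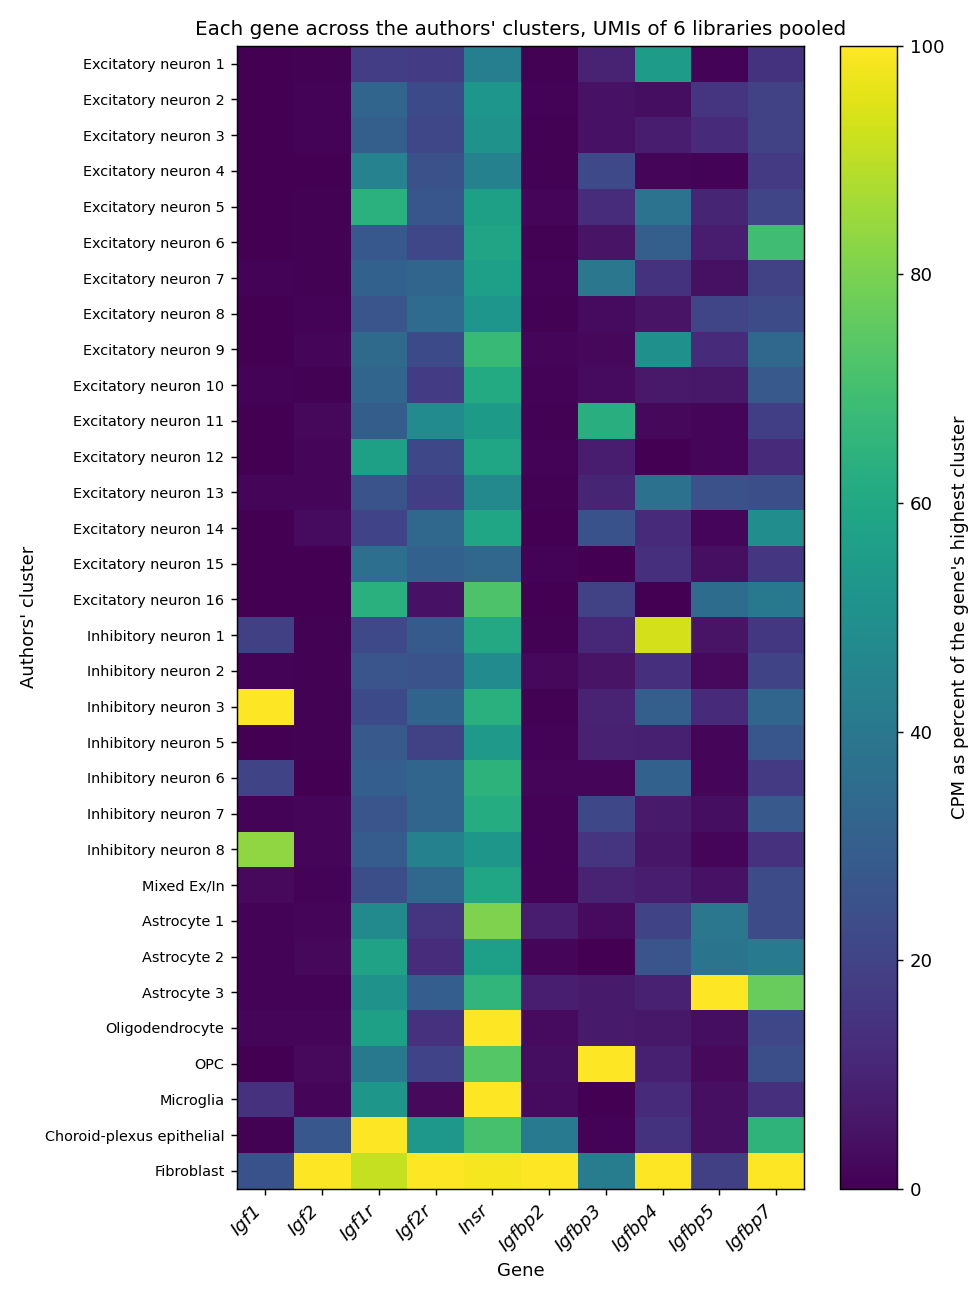
Level of each gene in the authors' 32 clusters, as a percent of that gene's highest cluster, with the UMIs of the 6 libraries pooled (clusters in rows, genes in columns, colour for the percent). Igf1 is highest in Inhibitory neuron 3 and 8, and Igfbp4 and Igfbp5 take opposite orders in Excitatory neuron 1 and Excitatory neuron 2.

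Igf2 was highest in the fibroblast class and the choroid plexus epithelium. The fibroblast class had 144 ± 55.0 CPM (78 UMIs) and the choroid plexus 35.7 ± 11.2 CPM (113 UMIs), with ranges of 78.4 to 219 and 25.2 to 53.9 CPM that did not overlap. The fibroblast class carried 25.8% and the choroid plexus 37.4% of all 302 Igf2 UMIs. In fibroblasts the left and right TBI VEGFC libraries had 219 and 132 CPM, the left and right TBI GFP libraries 193 and 78.4 CPM, sham VEGFC 92.7 CPM and sham GFP 152 CPM. In the choroid plexus the same libraries had 26.2, 40.5, 53.9, 28.4, 40.2 and 25.2 CPM. Both series overlapped between VEGFC and GFP and between TBI and sham. The fibroblast level was 54.6 CPM when only nuclei with at least 2000 UMIs were kept. In the other classes Igf2 had 2.22 to 8.79% of its choroid level, and Ttr, the transthyretin made by choroid epithelium, had 1.94 to 7.10% of its own. The shares of Igf2 and Ttr overlap, with OPCs (6 Igf2 UMIs) at the top for Igf2. Shares outside the choroid plexus were smaller for the folate receptor gene Folr1 (0.236 to 0.851%) and Ins2 (0 to 1.03%). Other choroid genes reached 13.8% (Kl, fibroblasts), 4.86% (Sostdc1, microglia), 4.07% (Htr2c, mixed neurons) and 3.73% (Clic6, inhibitory neurons). The shares thus differ by gene and class, and how much of the Igf2 in these classes is free RNA was not tested. Ins2, an insulin gene next to Igf2 and a ligand gene of Insr, had 161 UMIs in choroid nuclei (49.4 CPM) and no more than 8 UMIs in any other class.

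Igf1r, the receptor through which both growth factors signal, was present in every class. It was highest in choroid plexus, at 418 ± 32.1 CPM, and in fibroblasts, at 374 ± 66.5 CPM, with overlapping ranges. Both were apart from oligodendrocytes (241 ± 11.3 CPM), which overlapped with microglia (229 ± 79.3 CPM), and these with astrocytes (209 ± 13.7 CPM). Neurons were lowest, with excitatory neurons at 134 ± 5.54 CPM, inhibitory neurons at 105 ± 4.73 CPM and the mixed neuron class at 96.2 ± 13.4 CPM. In the choroid plexus the left and right TBI VEGFC libraries had 411 and 369 CPM, the left and right TBI GFP libraries 450 and 457 CPM, sham VEGFC 413 CPM and sham GFP 407 CPM, with the groups overlapping. An Igf1r UMI was present in 60.4% of choroid nuclei, or 33.4% at 1000 UMIs per nucleus. Among excitatory clusters Igf1r varied several-fold: Excitatory neuron 5 had 283 ± 70.7 CPM, Excitatory neuron 4 had 187 ± 13.2 CPM, Excitatory neuron 2 had 138 ± 5.12 CPM and Excitatory neuron 1 had 77.9 ± 9.50 CPM. Excitatory neuron 1 was below each of the other 3 in 6 of 6 libraries, in non-overlapping ranges.

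Insr, the insulin receptor, was present in every class. Microglia (175 ± 16.3 CPM), oligodendrocytes (171 ± 31.3 CPM) and the fibroblast class (168 ± 25.1 CPM) overlapped at the top and excitatory neurons had the lowest level, 86.5 ± 3.77 CPM. Igf2r, the clearing receptor for IGF-II, was highest in fibroblasts at 155 ± 44.5 CPM (69.8 to 193 CPM), followed by choroid plexus at 76.9 ± 16.5 CPM, and those ranges overlapped. The neuronal classes had 33.0 to 46.5 CPM, and microglia had 2 Igf2r UMIs in all. Airn, on the opposite strand of Igf2r, had the pattern most like it over the 32 clusters (Pearson r of log2(CPM + 1) = 0.86) and a higher level in every class, for example 298 CPM in fibroblasts.

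Of the binding proteins, Igfbp2, an abundant IGF-II-binding protein of cerebrospinal fluid, shared the sites of Igf2. Fibroblasts had 539 ± 92.3 CPM, the choroid plexus 214 ± 22.6 CPM and astrocytes 41.7 ± 10.5 CPM, with ranges of these 3 classes apart from each other. An Igfbp2 UMI was present in 41.3% of fibroblast, 38.6% of choroid and 6.38% of astrocyte nuclei. Astrocytes had 19.3% of the choroid level of Igfbp2, above the 1.99 to 8.61% in the remaining non-fibroblast classes. Outside the choroid plexus Ttr had 1.94 to 7.10% and Folr1 0.236 to 0.851% of their own choroid levels, and Kl reached 13.8% in fibroblasts. In fibroblasts the left and right TBI VEGFC libraries had 590 and 435 CPM, the left and right TBI GFP libraries 621 and 431 CPM, sham VEGFC 640 CPM and sham GFP 514 CPM. Over the 32 clusters Igf2 and Igfbp2 had the highest correlation of any pair of members, r = 0.81, as a description over clusters that share libraries.

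Igfbp5, the binding protein most tied to matrix, had its highest class level in astrocytes. Excitatory neurons carried 34.5% of its UMIs, at a class level of 22.9 ± 1.82 CPM. Among their clusters Excitatory neuron 13 had 78.4 ± 39.0 CPM (3 libraries with at least 20 nuclei) and Excitatory neuron 8 had 65.9 ± 19.3 CPM. Excitatory neuron 16 had 110 CPM with all libraries pooled, on 16 UMIs. Astrocytes had 188 ± 25.0 CPM and 52.1% of its 3781 UMIs, apart from fibroblasts at 57.6 ± 27.9 CPM. Of the astrocyte clusters, Astrocyte 3, which had 1641 CPM of Gfap against 522 CPM in Astrocyte 1, had 308 ± 41.4 CPM of Igfbp5 and Astrocyte 1 had 124 ± 23.8 CPM. Astrocyte 3 was higher in 6 of 6 libraries, at 284 and 256 CPM in the left and right TBI VEGFC libraries, 281 and 365 CPM in the left and right TBI GFP libraries, 341 CPM in sham VEGFC and 323 CPM in sham GFP. The same clusters differed in Igfbp7, at 39.4 ± 9.26 CPM in Astrocyte 3 and 11.7 ± 1.54 CPM in Astrocyte 1, again in 6 of 6 libraries with ranges apart. Igfbp2 did not separate them, at 44.4 ± 24.1 CPM in Astrocyte 3 and 41.9 ± 9.21 CPM in Astrocyte 1, with Astrocyte 3 higher in 3 of 6 libraries.

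Igfbp4 and Igfbp5 took opposite orders in the clusters Excitatory neuron 1 and Excitatory neuron 2. Igfbp5 had 48.5 ± 6.78 CPM in Excitatory neuron 2, a cluster with 228 CPM of the dentate granule cell marker Prox1, and 2.91 ± 1.28 CPM in Excitatory neuron 1, where Prox1 was at 0.733 CPM. Igfbp4, which inhibits IGF action until it is cleaved, had 16.4 ± 2.03 CPM in Excitatory neuron 1 and 1.08 ± 0.741 CPM in Excitatory neuron 2. The ratio of means was 16.6 for Igfbp5 in one direction and 15.2 for Igfbp4 in the other, and each order held in 6 of 6 libraries with ranges apart. Other clusters carried both genes: Excitatory neuron 5 had 10.2 ± 5.81 CPM of Igfbp4 and 34.2 ± 11.6 CPM of Igfbp5. Igfbp4 in Excitatory neuron 1 was 14.4 and 18.1 CPM in the left and right TBI VEGFC libraries, 17.6 and 13.8 CPM in the left and right TBI GFP libraries, 15.7 CPM in sham VEGFC and 18.6 CPM in sham GFP. Igfbp4 also had 27.7 ± 4.78 CPM in Inhibitory neuron 1, the somatostatin and parvalbumin cluster. Among classes its highest mean was in fibroblasts, 31.3 ± 29.4 CPM on only 18 UMIs, in a range that overlapped with inhibitory neurons (12.8 ± 1.78 CPM).

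**Figure D3:**
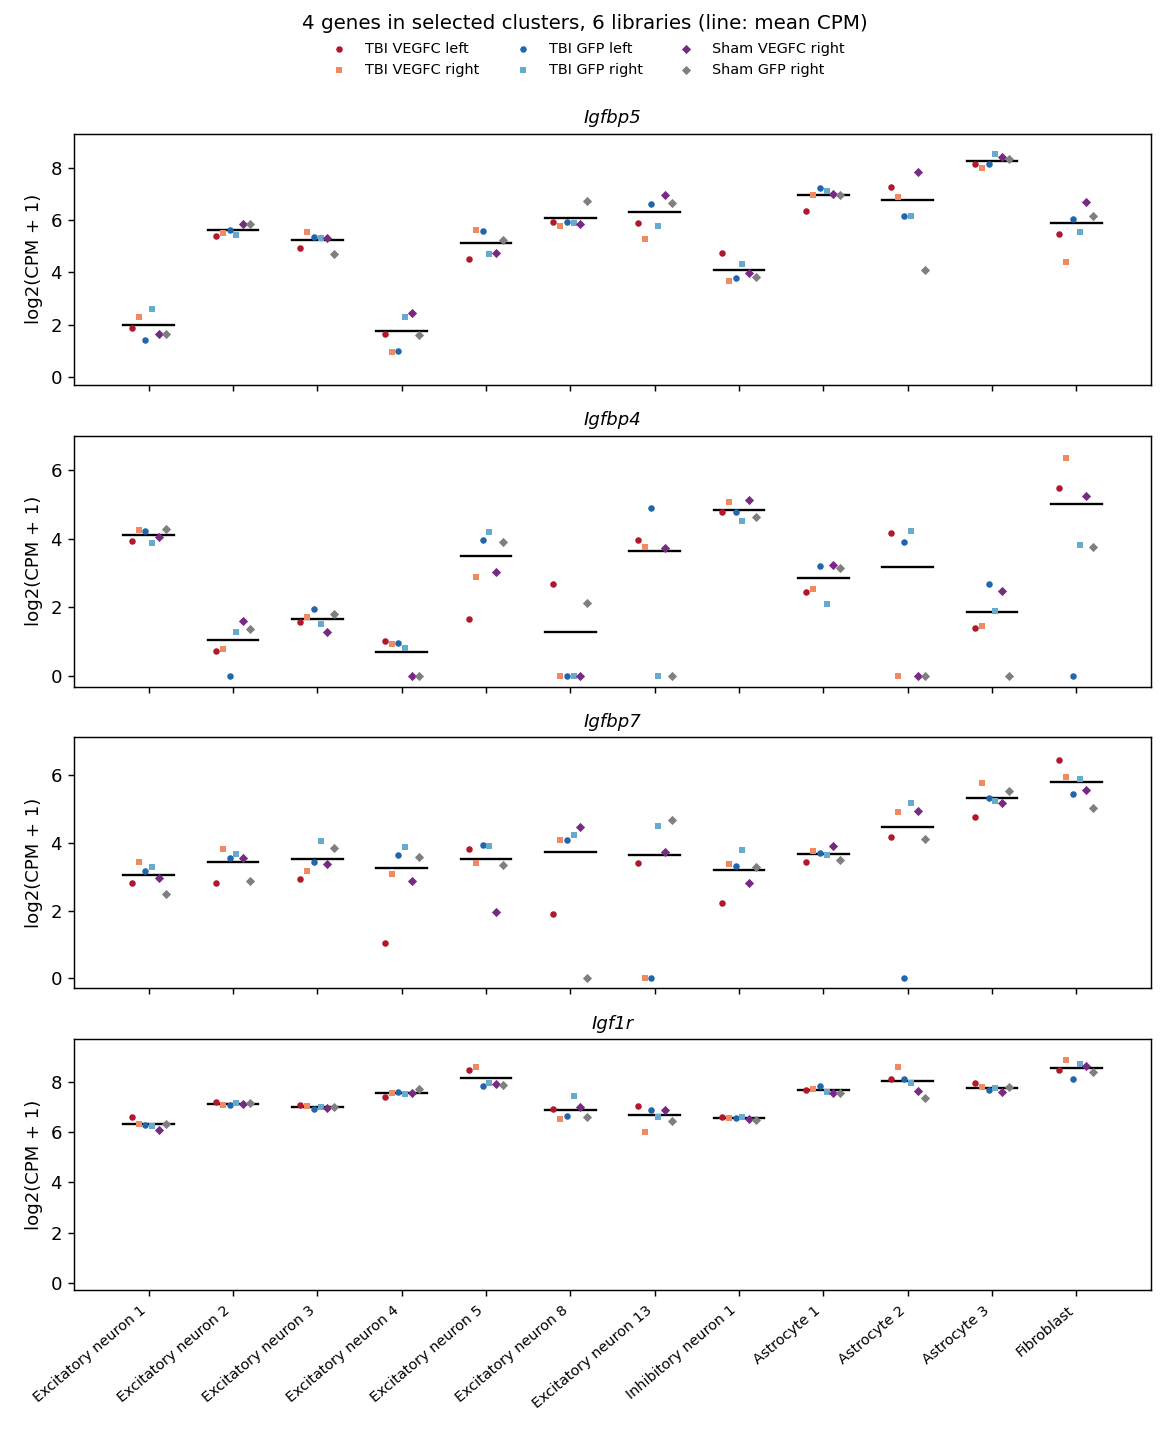
Levels of Igfbp5, Igfbp4, Igfbp7 and Igf1r in selected clusters, as log2(CPM + 1), with each library as a point and the mean CPM as a line. Igfbp5 and Igfbp7 are higher in Astrocyte 3 than in Astrocyte 1, and Igfbp4 and Igfbp5 take opposite orders in Excitatory neuron 1 and 2, in every library.

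Igfbp3, the main carrier of IGFs in blood, was sparse and had its highest level in OPCs, at 35.6 ± 16.0 CPM on 69 UMIs. The range over libraries, 12.5 to 54.9 CPM, overlapped with fibroblasts, which had 9 UMIs, 7 of them in the right TBI VEGFC library. No Igfbp3 UMI was seen in microglia, where a count of 0 allows up to 5.30 CPM. Among neurons Excitatory neuron 11 had 21.4 ± 10.0 CPM (5 libraries with at least 20 nuclei, 5.26 to 32.5 CPM) and Excitatory neuron 1 had 3.31 ± 0.861 CPM. The lowest of those 5 values rests on 1 UMI. Igfbp7, a vascular matrix protein that binds IGFs weakly, had 54.6 ± 19.3 CPM in fibroblasts, 33.2 ± 4.43 CPM in choroid plexus and 21.7 ± 3.75 CPM in astrocytes, with overlap between neighbours. The fibroblast level of Igfbp7 rests on 31 UMIs and was 4.73 CPM at a doublet score of at most 0.05, that of Igfbp4 was 88.2 CPM and that of Igfbp2 was 1085 CPM in the same nuclei. Among neurons Excitatory neuron 6 had 34.7 ± 6.62 CPM of Igfbp7 and Excitatory neuron 14 had 33.8 ± 1.78 CPM (2 libraries with at least 20 nuclei).

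The genes with the most similar pattern over the 32 clusters were taken by Pearson correlation among 16483 genes. Their own levels by cluster are not given here. For Igf1 they were Igf1os (0.89), Maf (0.81), Ndnf (0.79), Dlx1as (0.79) and Tcim (0.79). For Igf2 they were the organic anion transporter gene Slc22a8 (0.88), Ldlrad2 (0.88), Spo11 (0.88), Uaca (0.87) and Slc6a20a (0.87). For Igfbp2 they were the perlecan gene Hspg2 (0.90), Eva1b (0.89), Plekhg2 (0.88), Klhdc7a (0.87) and Slco1a4 (0.87), and for Igfbp5 Cbs (0.74), Slc4a4 (0.71), Camk2g (0.70), Fjx1 (0.70) and Sparcl1 (0.69). The correlations of Insr were led by Zfp518a (0.87), Smyd1 (0.85), Stag2 (0.85), Atf7ip (0.84) and Mindy1 (0.84), and those of Igf1r by Dera (0.79), Uxt (0.75), Ppp1r10 (0.75), Tdrd3 (0.74) and Tns1 (0.74). After Airn, Igf2r was followed by Rapgef4os2 (0.80), Ndufb2 (0.79), Alas2 (0.77) and Mtfp1 (0.75). For Igfbp7 they were Ccr9 (0.77), Sfrp1 (0.74), Uaca (0.73), Mterf4 (0.71) and Fut11 (0.70). For Igfbp3 they were Acap3 (0.68), Igsf21 (0.65), Rasl12 (0.64), Dpysl3 (0.64) and Kif26a (0.64), and for Igfbp4 Msto1 (0.62), Dnajc17 (0.61), Txndc11 (0.58), Srpx2 (0.58) and Mnd1 (0.56).

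The injury and vector comparisons were made on counts summed per class and library. Of the 90 possible pairs of a member and a class, 51 had enough counts to be tested: Igf1r and Insr in 9 classes each, Igf2r in 8, Igfbp2 in 6, Igfbp5 and Igfbp7 in 4 each, Igf2, Igfbp3 and Igfbp4 in 3 each, and Igf1 in 2. For VEGFC against GFP, adjusted for context, 0 of the 51 passed an adjusted p of 0.05 with edgeR's quasi-likelihood test, against 0.0281% of all gene and class pairs, and 0 with DESeq2. At an unadjusted p under 0.05 there were 2, against 5.41% of all pairs. The median log2 difference over the members' pairs was 0.05. Igfbp7 in excitatory neurons had 7.64 and 10.5 CPM in the left and right TBI VEGFC libraries, 11.4 and 14.6 CPM in the left and right TBI GFP libraries, 9.29 CPM in sham VEGFC and 10.0 CPM in sham GFP. VEGFC was lower than GFP in each of the 3 contexts, with a log2 difference of -0.36 ± 0.14 (SE, unadjusted p = 0.0273, adjusted p = 0.739 with edgeR). Igf2r in excitatory neurons was higher with VEGFC in each context, at 38.9, 32.5 and 34.5 CPM with VEGFC and 31.1, 30.5 and 30.8 CPM with GFP in TBI left, TBI right and sham right. Its log2 difference was 0.22 ± 0.09 (unadjusted p = 0.0307, adjusted p = 0.739 with edgeR). Igf1 in inhibitory neurons differed by 0.28 ± 0.19 (adjusted p = 0.981 with edgeR), and by 0.04 to 0.61 over the alternatives. It was 0.60 without the sham GFP library, where sham has a single library and the estimate rests on the TBI libraries alone. VEGFC differed from GFP in the same direction in all 3 contexts in 7 of the 51 pairs (13.7%), against 26.2% of all pairs.

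For TBI right against sham right, 0 of the 51 pairs passed (0.0782% of all pairs; 0 with DESeq2) and 2 had an unadjusted p under 0.05, against 5.03%. The median log2 difference was 0.03. Igfbp3 in OPCs had 51.1 CPM in TBI VEGFC and 54.9 CPM in TBI GFP, against 37.3 CPM in sham VEGFC and 12.5 CPM in sham GFP. That is 16 and 17 UMIs after TBI, against 11 and 4 UMIs in sham. The 2 TBI values lay above both sham values, with a log2 difference of 1.12 ± 0.48 (unadjusted p = 0.0269, adjusted p = 0.884 with edgeR). Leaving out 1 library at a time moved it between 0.40 (without sham GFP) and 2.18 (without sham VEGFC). Igfbp7 in excitatory neurons differed by 0.37 ± 0.17 on the log2 scale (unadjusted p = 0.0487, adjusted p = 0.973). For Igf1 in inhibitory neurons the difference was 0.36 ± 0.23 (adjusted p = 0.995 with edgeR), 0.88 ± 0.20 without the sham GFP library (adjusted p = 0.0240) and -0.14 ± 0.19 without the sham VEGFC library (adjusted p = 1.00).

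For TBI left against TBI right, which shares the TBI right libraries with the previous comparison, 0 of the 51 passed (0.0318% of all pairs; 0 with DESeq2) and 6 had an unadjusted p under 0.05, against 3.49%. The median log2 difference was 0.05. Igfbp2 in excitatory neurons was lower on the left with either vector, at 2.33 CPM left and 4.46 CPM right with VEGFC and at 3.44 CPM left and 6.51 CPM right with GFP. Its log2 difference was -0.94 ± 0.29 (unadjusted p = 0.00842, adjusted p = 1.00 with edgeR), at a level that is 2.06% of the choroid plexus level. Igfbp7 was also lower on the left, by -0.42 ± 0.17 in excitatory and -0.61 ± 0.26 in inhibitory neurons on the log2 scale (over the alternatives -0.55 to -0.28 and -0.76 to -0.26). The left libraries were higher for Igf1 in fibroblasts, at 219 CPM left and 70.9 CPM right with VEGFC and at 129 CPM left and 39.2 CPM right with GFP (log2 difference 1.60 ± 0.70, adjusted p = 0.800 with edgeR). Those Igf1 values rest on 10, 7, 6 and 6 UMIs. Igf2 in fibroblasts differed by 1.00 ± 0.50 in the same direction (adjusted p = 0.844 with edgeR, 0.38 to 1.51 over the alternatives), in 27 and 71 nuclei with VEGFC and 32 and 102 nuclei with GFP, left and right. Insr in oligodendrocytes had 188 CPM left and 122 CPM right with VEGFC and 206 CPM left and 189 CPM right with GFP. Its log2 difference was 0.34 ± 0.17 (unadjusted p = 0.0461, adjusted p = 0.998 with edgeR), and it moved between 0.05 (without the right TBI VEGFC library) and 0.70 (without the right TBI GFP library).

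**Figure D4:**
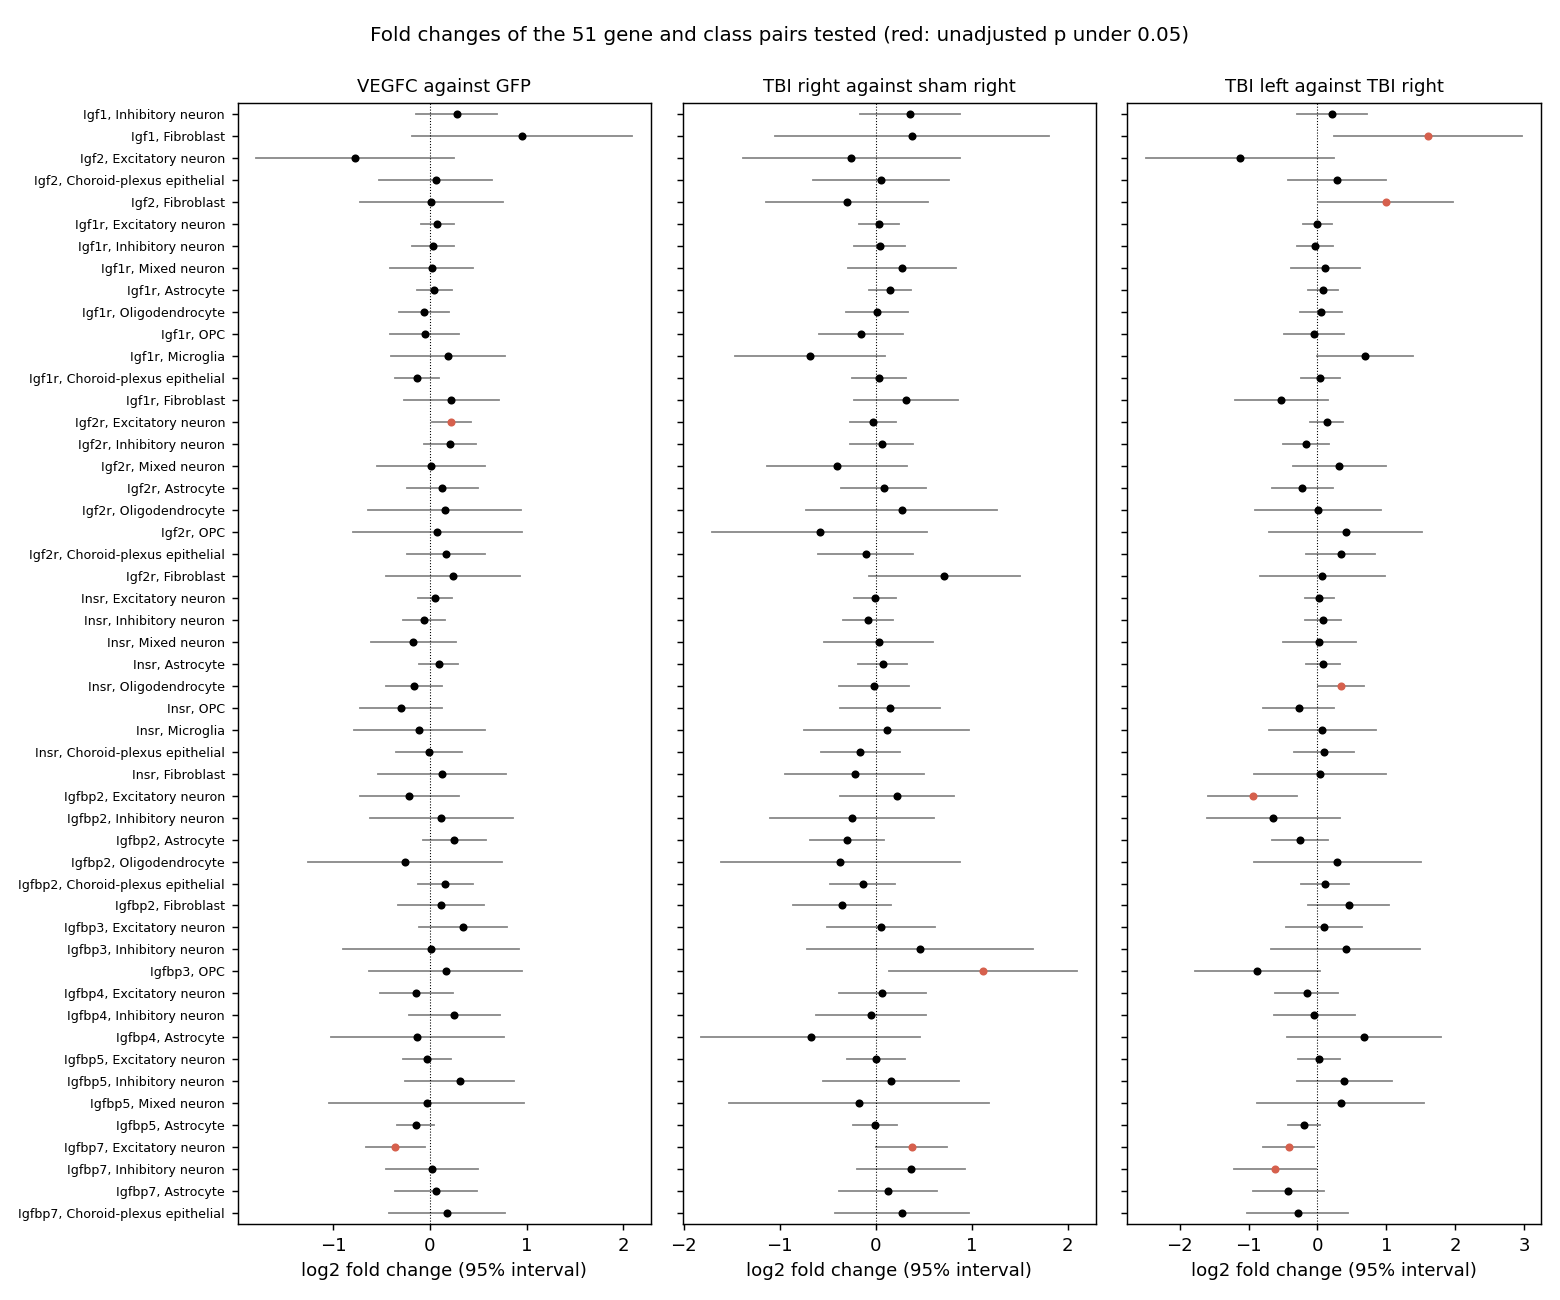
Log2 fold changes of the 51 member and class pairs in 3 comparisons (points) with 95% intervals (lines), red where the unadjusted p was under 0.05. Intervals are narrow for Igf1r and Insr in neurons and wide for fibroblasts and microglia, and no pair passed the adjusted threshold.

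How precisely a difference could be measured depended on the counts. For Igf1r in excitatory neurons the interval of the log2 difference was -0.09 to 0.25 for VEGFC against GFP and -0.18 to 0.24 for TBI right against sham right. For Insr in the same class these intervals were -0.12 to 0.23 and -0.22 to 0.21. For Igfbp5 in astrocytes, with 152 and 170 CPM in the left and right TBI VEGFC libraries, 189 and 221 CPM in the left and right TBI GFP libraries, 209 CPM in sham VEGFC and 188 CPM in sham GFP, they were -0.34 to 0.04 and -0.24 to 0.22. In these classes a change of 1 on the log2 scale lay outside the intervals. For Igf1 in inhibitory neurons they were -0.14 to 0.69 and -0.16 to 0.87.

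The question whether the vector acted differently after injury was put to a fit in which the left and right TBI libraries stand as replicates, although they are sides and not replicates. Of 56 member pairs 0 passed (0.221% of all pairs; 0 with DESeq2), and 4 had an unadjusted p under 0.05, against 7.24%. The smallest unadjusted p was that of Igf1 in inhibitory neurons. It had 116 and 93.0 CPM in the left and right TBI VEGFC libraries, 71.3 and 68.0 CPM in the left and right TBI GFP libraries, 54.4 CPM in sham VEGFC and 72.1 CPM in sham GFP, from 218 to 293 UMIs each. Both TBI VEGFC values were the highest of the 6 and the sham VEGFC value was the lowest. The VEGFC effect in TBI minus that in sham was 1.03 ± 0.24 on the log2 scale (95% interval 0.50 to 1.56, unadjusted p = 0.00129, adjusted p = 0.937 with edgeR). It passed the threshold without the left or the right TBI GFP library (adjusted p = 0.0405 and 0.0103) or with no filter on low counts (adjusted p = 0.0244).

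The make-up of the inhibitory class also differed between libraries, and its part in the Igf1 pattern was not tested. The Igf1-carrying clusters 1, 3, 6 and 8 gave 85.0% and 69.5% of the class's UMIs in the left and right TBI VEGFC libraries, 53.0% and 64.9% in the left and right TBI GFP libraries, 54.2% in sham VEGFC and 58.8% in sham GFP. Within these clusters alone Igf1 was at 137 and 134 CPM in the TBI VEGFC libraries, 132 and 105 CPM in the TBI GFP libraries, 96.7 CPM in sham VEGFC and 122 CPM in sham GFP. The difference of vector effects there was 0.55 ± 0.20 (adjusted p = 0.625 with edgeR), and within Inhibitory neuron 3 it was 0.33 ± 0.25 (adjusted p = 0.928 with edgeR). The other 3 of these clusters did not share 1 order. Inhibitory neuron 8 had 238 and 264 CPM in the left and right TBI VEGFC libraries and 120 and 111 CPM with TBI GFP. It had 258 CPM in sham VEGFC and 312 CPM in sham GFP, on 9 to 31 UMIs and 12 to 33 nuclei. Inhibitory neuron 1 had 61.7 and 50.3, 48.5 and 51.8, 37.4 and 45.9 CPM in the same order. In Inhibitory neuron 6, Igf1 had 106 and 82.7 CPM in the TBI VEGFC libraries, 39.1 and 34.7 CPM in the TBI GFP libraries, 25.5 CPM in sham VEGFC and 39.9 CPM in sham GFP, on 8 to 28 UMIs. The difference there was 1.99 ± 0.74 (adjusted p = 0.863 with edgeR).

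**Figure D5:**
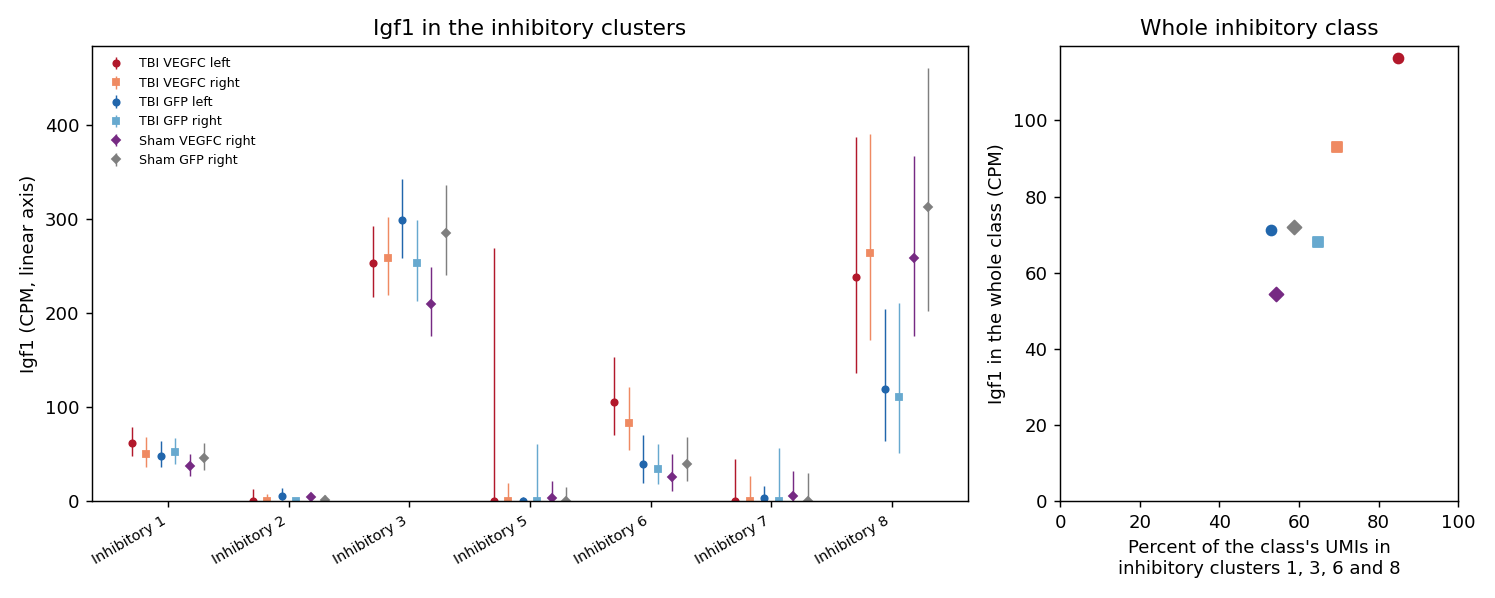
Igf1 in inhibitory neurons: left, CPM per library in each inhibitory cluster with exact 95% Poisson intervals; right, CPM in the whole class against the percent of the class's UMIs in clusters 1, 3, 6 and 8, each library a point. The class level and the share of these clusters are both highest in the left TBI VEGFC library, and Inhibitory neuron 3 stays between 210 and 298 CPM.

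The other 3 pairs were Igfbp5 in astrocytes (-0.46 ± 0.17, adjusted p = 0.461), Igfbp2 in oligodendrocytes (-2.75 ± 1.08, adjusted p = 0.614) and Igfbp7 in oligodendrocytes (-2.93 ± 1.28, adjusted p = 0.692). Igfbp7 in oligodendrocytes had 3 and 1 UMIs in the left and right TBI VEGFC libraries, 2 and 10 in the left and right TBI GFP libraries, 13 in sham VEGFC and 6 in sham GFP. Igfbp2 there had 4 to 12 UMIs per library. With the authors' clusters in place of classes, 0 of 103 member pairs passed in each of the 3 main comparisons (0.026% of all gene and cluster pairs for VEGFC against GFP, 0.0504% for TBI right against sham right, 0.0488% for TBI left against TBI right), and 0 of 115 for the difference of vector effects (0.291%). The smallest adjusted p among them was 0.183, for Igf1r in Excitatory neuron 12. Only clusters with at least 20 nuclei in every library were fitted. Left out were Excitatory neuron 10, 11 and 13 to 16, Inhibitory neuron 5 and 8, and Astrocyte 2.

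Genes around the members in the pathway were tested in the same fits. They comprised 6 other ligands, receptors and binding proteins, 8 proteases of the binding proteins and their inhibitors, 15 receptor adaptors, 28 genes of the PI3K-Akt-mTOR arm, 9 of the Ras-MAPK arm and 11 that regulate Igf1 or Igf2. Of 437 gene and class pairs 0 passed for VEGFC against GFP, TBI right against sham right or TBI left against TBI right, with 14, 24 and 21 at an unadjusted p under 0.05, against 5.41%, 5.03% and 3.49% of all pairs. By list, the receptor adaptors had 3 of 98 pairs at that level for VEGFC against GFP and 0 of 98 for TBI right against sham right, and the PI3K-Akt-mTOR arm had 5 and 11 of 187. The proteases had 1 and 5 of 35, the Ras-MAPK arm 1 and 1 of 66, the regulators of Igf1 and Igf2 4 and 6 of 47, and the other ligands, receptors and binding proteins 0 and 1 of 4. Median log2 differences over these lists lay between -0.16 and 0.06 for VEGFC against GFP, against 0.00 over all pairs.

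For the difference of vector effects 1 of 454 pathway pairs passed, against 0.221% of all pairs: Pappa2, which encodes a protease that cleaves Igfbp5, in the mixed neuron class. That class held 126 of the 197 pairs called over all genes. It had 13.4 and 27.5 CPM in the left and right TBI VEGFC libraries, 16.0 and 15.0 CPM in the left and right TBI GFP libraries, 16.2 CPM in sham VEGFC and 76.6 CPM in sham GFP. The sham GFP library was the high one, with 46 UMIs, and the difference was 2.78 ± 0.75 on the log2 scale (adjusted p = 0.0471 with edgeR). It did not pass with limma-voom (adjusted p = 0.177), without the right TBI VEGFC library (0.532), without the left or the right TBI GFP library (0.402 and 0.123), or at a doublet score of at most 0.05 (0.894). DESeq2 gave it no adjusted p. In clusters, Shc3, a Shc adaptor gene, and Gsk3b, a kinase gene downstream of Akt, passed in Astrocyte 1, and the growth hormone receptor gene Ghr passed in Excitatory neuron 7. Ghr there had 29.1 and 53.4 CPM in the left and right TBI VEGFC libraries, 14.8 and 36.8 CPM in the left and right TBI GFP libraries, 18.2 CPM in sham VEGFC and 82.6 CPM in sham GFP. In all 4 cases the sham GFP library had the highest value.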

How the data were processed

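Nuclear RNA was read from 6 libraries of microdissected hippocampus, made with the 10x Genomics 3′ v3.1 kit per the labels' protocols. The submitters' processing notes name Cell Ranger 7.0.1, Scanpy and mm10, but no source used here gives settings, filters, strand use or annotation. The authors deposited whole-number UMI counts per gene and nucleus, a cell class and cluster for each nucleus, the percent of mitochondrial counts (deposited maximum 0.999%) and a doublet score (deposited maximum 0.099, tool not given). The nuclei deposited had at least 1001 UMIs, and no further nuclei were removed.

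Levels are CPM of counts summed per class or cluster and library. The mean and SD of a cluster use only libraries with at least 20 of its nuclei. Single-library and pooled values of a cluster have no such minimum, and tests in clusters needed at least 20 nuclei in every library. Summed counts per class were tested with edgeR 4.0.16 (quasi-likelihood, filterByExpr, TMM) in R 4.3.3, with context and vector as terms and 2 residual degrees of freedom. P-values were Benjamini-Hochberg adjusted over all genes in a class and comparison, and SEs were derived from the F statistic. Limma 3.58.1 and DESeq2 1.42.0 were alternatives, and the scripts were tested on simulated data. Intervals of single shares and counts are exact binomial or Poisson at 95%. P-values measure only the spread between libraries, which may be technical. edgeR draws each gene's spread towards that of all genes, with a weight called the prior degrees of freedom. That weight was infinite in fibroblasts and choroid plexus and 8062 in oligodendrocytes, so a gene's own spread counted for nothing or little there. In the fit for the difference of vector effects the spread comes from the sides of the TBI brains alone. Promoter sequences are RefSeq's, for 9 of 10 members. The members and gene lists were chosen with earlier results of these data known. All members were named, other pathway genes where they passed the threshold, and for likeness the 5 genes with the highest correlation among genes of at least 10 CPM in some cluster.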

Additional observations from a re-analysis of the deposited data

Results flagged for a closer look

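For 4 genes around the members the VEGFC effect in the TBI libraries minus that in the sham libraries had an adjusted p under 0.05, in a fit that treats both sides of the TBI brains as if they were replicates. For Pappa2 in the mixed neuron class the difference was 2.78 on the log2 scale. For Ghr in Excitatory neuron 7 it was 2.58 ± 0.70 (adjusted p = 0.0364 with edgeR). For Shc3 in Astrocyte 1 it was 0.84 ± 0.20 (adjusted p = 0.0215 with edgeR), with 234 and 226 CPM in the left and right TBI VEGFC libraries, 191 and 199 CPM in the left and right TBI GFP libraries, 186 CPM in sham VEGFC and 274 CPM in sham GFP. For Gsk3b in Astrocyte 1 it was 0.80 ± 0.18 (adjusted p = 0.0108 with edgeR), with 270, 323, 262, 251, 243 and 357 CPM in the same libraries. The sham arm of each rests on a single GFP and a single VEGFC library, sham GFP was the highest of the 6 libraries in all 4, and the fit cannot tell that library from the vector effect in sham.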

How the results depend on the processing

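Of the results recomputed under the alternatives, 1 changed direction: Igf1 in inhibitory neurons for TBI right against sham right was -0.14 on the log2 scale without the sham VEGFC library, against 0.36 with all 6. Without the sham GFP library, 1 member pair passed for VEGFC against GFP and 1 for TBI right against sham right, both Igf1 in inhibitory neurons (log2 difference 0.60, adjusted p = 0.0396, and 0.88, adjusted p = 0.0240, with edgeR). Leaving out other libraries gave 0, so the range over libraries was 0 to 1, as it was for the difference of vector effects, where no filter on low counts also gave 1. Over the alternatives the difference of vector effects for Igf1 was 0.55 to 1.39, with adjusted p of 0.0103 to 1.00. Other pathway pairs numbered 0 to 1 for TBI right against sham right when 1 library was left out and 2 with no filter, 0 to 3 for TBI left against TBI right without 1 library, and for the difference of vector effects 1 to 4 without 1 library, 2 with RLE size factors, 3 with no filter, 4 with the authors' clusters, and 0 with DESeq2 or with doublet scores of at most 0.05. Among nuclei with at least 2000 UMIs the fibroblast levels were 54.6 CPM for Igf2, 210 CPM for Igf2r and 385 CPM for Igfbp2, and Insr in microglia was 145 CPM. With doublet scores of at most 0.05 (4 libraries with nuclei left) fibroblasts had 107 CPM of Igf2r, 1085 CPM of Igfbp2, 88.2 CPM of Igfbp4 and 4.73 CPM of Igfbp7, and microglia had 93.1 CPM of Insr. The cause was not tested. At that score microglia and fibroblasts could not be fitted. Using clusters, and using inhibitory clusters 1, 3, 6 and 8 alone, were chosen after seeing the data.

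Over all genes, pairs called for VEGFC against GFP numbered 23, and 236 with no filter, 8 with no context term, 10 at the lower doublet score, 1 from nuclei with at least 2000 UMIs, 0 with DESeq2 (420 at an unadjusted p under 0.05), 48 in clusters and 24 to 390 without 1 library. For TBI right against sham right they numbered 64, and 170, 34, 18, 7, 93 and 49 to 191 with no filter, the lower doublet score, at least 2000 UMIs, DESeq2, clusters and 1 library left out. For TBI left against TBI right they numbered 26, and 104, 5, 6, 3, 90 and 20 to 277 in the same order. For the difference of vector effects they numbered 197, and 25 with DESeq2, 594 in clusters and 147 to 455 without 1 library. The difference of vector effects cannot be estimated without either sham library. Where leaving out a library left an arm with 1 sample, that sample was assumed to vary like the others. Without the sham GFP library, the VEGFC against GFP estimate rests on the TBI libraries alone. No paired analysis was possible because no replicate number in the labels is shared by 2 libraries; the context term already sets VEGFC against GFP within each context. Depth limited the tests: of 9 classes, Igf1 had enough UMIs in 2, and Igf2, Igfbp3 and Igfbp4 in 3 each.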
